A study of Mus musculus with 192 samples.

Results

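The genes described here are 6 transcription factors of the primitive endoderm, Gata6, Gata4, Sox17, Sox7, Foxa2 and Hnf4a. They were chosen by name as known factors of this lineage, with earlier results of these data known. They are 6 of the 39815 gene identifiers listed for nuclear and cytoplasmic RNA. E14 cells, a wild-type mouse embryonic stem cell (mESC) line of strain 129/Ola, were held in 2i medium with LIF (inhibitors of MEK and GSK3 plus a cytokine that keep cells in the naive state) and then moved to N2B27 medium that held all-trans retinoic acid (RA) at 0.25 µM, renewed at 48 h. Poly(A) RNA was sequenced at 8 time points, before RA (0 h), at 6, 12 and 24 h, at 36 and 48 h, and at 72 and 96 h. Cytoplasmic and nuclear RNA come from 3 separate differentiations (runs 5, 6 and 7), with 1 library per run, fraction and time point, which gives 24 libraries of each fraction. Total RNA of unsorted cells comes from run 1 (7 time points, all but 12 h), run 2 (0 and 96 h) and run 3 (0, 12, 24, 36 and 48 h). Cells sorted after 96 h gave 1 library labelled XEN (for extraembryonic endoderm-like cells) and 1 labelled ECT (for ectoderm-like cells). The 96 libraries of mESCs transfected with miR mimics or inhibitors received no RA. All cells are of 1 line and every group shares the 2i culture before the switch, so the 0 h samples stand for naive cells only. No sample was moved out of 2i and LIF without RA. Effects of RA and of the change of medium therefore cannot be told apart. The sorted gates rest on 2 surface proteins, CD24 and PDGFRA, and not on any of the 6 factors.

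The fraction libraries held 6860455 to 30624957 counts, single-end total RNA 29361976 to 36364206 and paired-end total RNA 12653988 to 13692865. The fraction files used here list no gene of chromosomes 7, 8, 9, X, Y or the mitochondrion, so values of CPM (read counts scaled to a common library total) of the fractions and of total RNA do not share a base and are never set against each other. The RNAs best known for staying in the nucleus differed little between the fractions. Nuclear over cytoplasmic ratios lay between 0.945 and 1.90 for Malat1 and between 1.19 and 2.12 for Neat1 over the 8 time points, against 0.869 to 1.05 for the cytoplasmic mRNA Gapdh. In total RNA the run 1 libraries labelled 36 h and 48 h were nearly equal, with a median squared difference of 0.547 in units of counting noise over genes, against 15.3 to 32.3 for the other neighbouring pairs of that run. Both sorted libraries come from run 1 and are marked as set aside in the study's own sample list, with no reason given there. For the sorted cells the label fields disagree. The protocol and titles give XEN as CD24-/PDGFRA+, while another field gives it as CD24+/PDGFRA-. Pdgfra stood at 677 CPM in the library labelled XEN and 224 in the library labelled ECT, and Cd24a at 18.9 and 705, which is the order the protocol gives.

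The primitive endoderm is the layer of the blastocyst that later forms the parietal and visceral endoderm of the yolk sac. GATA6 is needed at the start of this lineage, and forced expression of GATA6 or GATA4 is enough to turn mESCs into extraembryonic endoderm-like cells. GATA4, the HMG-box factors SOX17 and SOX7, the forkhead factor FOXA2 and the nuclear receptor HNF4A follow, and SOX7 is best known from parietal endoderm, while FOXA2 and HNF4A are best known from visceral endoderm and from the liver. RA is a classical inducer of such endoderm in cultured stem and carcinoma cells.

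Outside GATA6, the genes lie on 3 chromosomes of the mm10 build (RefSeq positions of GRCm38.p6). Sox17 is at chr1:4490928-4497426, Foxa2 at chr2:148042877-148046969, Hnf4a at chr2:163506811-163572907, Gata4 at chr14:63198914-63271712 and Sox7 at chr14:63943706-63950732. Gata4 and Sox7 are neighbours at a distance of 672.0 kb, with 6 protein-coding genes between them. Of the 5 of these that were tested in cytoplasmic RNA, 3 were higher at 96 h than at 0 h, 1 was lower and Mtmr9 did not pass, where 33.3% of all genes tested were higher and 34.4% lower. Fam167a (log2 difference 4.79, adjusted p = 5.21e-09), Xkr6 (adjusted p = 8.28e-08) and Pinx1 (0.35, adjusted p = 0.0478) rose, and Tdh, the threonine dehydrogenase of mESCs, fell (-7.59, adjusted p = 3.85e-18), all in edgeR's quasi-likelihood test.

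RefSeq promoter windows (250 bases before to 50 bases after a transcript start, GRCm38.p6) were at hand for 2 of the 6 genes, with 3 starts of Foxa2 and 2 of Hnf4a. The windows are shown because each gene has 1 window with the letters AGATAA, the core that GATA factors bind. AGATAA is in 11.2% of the 32851 windows of the table when both strands are read. Capitals mark AGATAA and, in the Foxa2 window, TATAAA on the opposite strand (in 13.6% of windows), and the matches do not overlap.
Foxa2, chr2:148045415-148045714, minus strand: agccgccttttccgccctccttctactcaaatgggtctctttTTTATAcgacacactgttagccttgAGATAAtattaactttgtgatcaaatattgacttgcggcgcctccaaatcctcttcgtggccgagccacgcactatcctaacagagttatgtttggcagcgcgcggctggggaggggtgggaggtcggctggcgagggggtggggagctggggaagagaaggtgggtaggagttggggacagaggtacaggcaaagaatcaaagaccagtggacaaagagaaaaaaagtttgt
Hnf4a upstream start, chr2:163506607-163506906, plus strand: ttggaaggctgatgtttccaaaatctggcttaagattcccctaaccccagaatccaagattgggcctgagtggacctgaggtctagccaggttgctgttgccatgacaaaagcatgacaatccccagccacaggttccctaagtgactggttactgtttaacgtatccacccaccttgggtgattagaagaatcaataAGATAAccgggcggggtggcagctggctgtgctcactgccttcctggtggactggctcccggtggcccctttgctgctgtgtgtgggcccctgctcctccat
Hnf4a downstream start, chr2:163546905-163547204, plus strand: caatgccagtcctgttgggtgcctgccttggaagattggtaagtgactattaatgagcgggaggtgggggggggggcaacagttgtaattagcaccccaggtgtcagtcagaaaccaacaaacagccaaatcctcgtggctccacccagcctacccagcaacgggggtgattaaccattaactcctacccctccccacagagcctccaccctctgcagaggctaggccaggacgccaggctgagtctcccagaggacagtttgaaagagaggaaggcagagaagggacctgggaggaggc
AGATAA begins 183 bases before the most downstream of the 3 Foxa2 starts, which lies inside the gene. It is absent from the windows at the other Foxa2 starts, which are not shown. In Hnf4a it begins 52 bases before the upstream start and is absent from the downstream start, which is the one known from adult liver. None of the 5 windows held TGATAA (9.05% of all windows), the forkhead letters TGTTTAC (3.65%) or TATTTAC (3.04%), the SOX letters ACAATGG (3.66%) or ACAATAG (2.37%), or the nuclear receptor hexamer AGGTCA (16.3%). A match is a description of these letters and no binding was measured.

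Gata6, the first factor of the lineage, had left its starting level by 12 h in cytoplasmic RNA. Its level at 0 h was 4.62, 2.97 and 5.62 CPM in runs 5, 6 and 7 (CPM scaled by the TMM method, here and for all fraction values). It stood at 4.75, 3.15 and 3.79 CPM at 6 h and at 10.7, 9.52 and 12.6 at 12 h. All 3 runs were above every 0 h library from 12 h on (log2 difference 1.23 ± 0.25 (SE), adjusted p = 0.000376). It then reached 25.6, 31.8 and 29.4 CPM at 24 h and 37.5, 38.1 and 57.1 at 36 h. Between 36 and 48 h the level hardly moved, with 40.6, 37.6 and 54.7 CPM at 48 h and a log2 difference of 0.02 ± 0.19 (adjusted p = 0.971). A second rise brought it to 81.5, 90.0 and 124 at 72 h and 256, 251 and 317 at 96 h, 5.86 ± 0.24 above 0 h on the log2 scale (adjusted p = 1.51e-15). In all such tests n = 3 runs per time point, and p-values are those of edgeR's quasi-likelihood test adjusted over all genes. In these bulk libraries, more cells of a type and more RNA per cell cannot be told apart.

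Sox7 started from almost nothing. Only 3 reads per library were counted at 0 h in cytoplasmic RNA, which is 0.272, 0.307 and 0.179 CPM. At 6 h the runs spread over 0, 1.87 and 0.893 CPM, and the difference did not pass (adjusted p = 0.105), though it did without run 5, the library with no read (adjusted p = 0.00470). From 12 h (1.33, 1.44 and 1.25 CPM, log2 difference 2.40 ± 0.64 (SE), adjusted p = 0.00513) its libraries no longer overlapped those at 0 h, as for Gata6, although without run 7 the 12 h call was lost (adjusted p = 0.125). Sox7 climbed without a pause in its means, through 5.66, 3.58 and 4.83 at 24 h, 9.06, 9.31 and 11.8 at 36 h, 13.2, 15.4 and 17.7 at 48 h and 32.5, 29.9 and 40.1 at 72 h to 65.3, 66.3 and 85.3 CPM at 96 h. Of these steps, that from 36 to 48 h was not called (log2 difference 0.63 ± 0.31 (SE), adjusted p = 0.191). The final difference from 0 h was 8.12 ± 0.48 on the log2 scale (adjusted p = 9.39e-13).

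Gata4 and Sox17 came up later. Gata4 had 1.54, 2.15 and 1.195 CPM at 0 h and 0, 0.818 and 0.893 at 6 h, so all 6 h libraries lay below all 0 h libraries, yet the difference missed the threshold (log2 difference -1.76 ± 0.70 (SE), adjusted p = 0.0562). With the differentiation run as a block it passed (adjusted p = 0.0422), as it did with DESeq2 (adjusted p = 0.00655). At 12 h Gata4 stood at 2.48, 1.14 and 0.627 and at 24 h at 2.23, 3.33 and 2.89 CPM (adjusted p against 0 h = 0.166). It was first called higher at 36 h, with 9.53, 12.3 and 12.2 CPM (log2 difference 2.81 ± 0.39 (SE), adjusted p = 2.75e-06), and went on to 23.6, 26.4 and 34.4 at 48 h, 67.2, 75.9 and 120.5 at 72 h and 259.7, 296 and 379 at 96 h. At 96 h it was 7.58 ± 0.36 above 0 h (adjusted p = 1.99e-14).

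Sox17, the relative of Sox7, held 0.453, 1.02 and 1.14 CPM at 0 h, 0, 1.17 and 0.335 at 6 h and 0.953, 0.645 and 0.690 at 12 h. At 24 h it had 1.49, 2.65 and 2.02 CPM, above every 0 h library, with an adjusted p of 0.0845 in the unblocked fit and 0.0333 with the run as a block. At 36 h the level was 7.94, 7.64 and 10.8 CPM (log2 difference 3.24 ± 0.45 (SE), adjusted p = 2.84e-06). It ended at 109, 126 and 204 CPM at 96 h, 7.28 ± 0.43 above 0 h (adjusted p = 9.69e-13), after 10.4, 12.3 and 18.9 at 48 h and 47.2, 33.3 and 58.9 at 72 h.

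Foxa2 was the last of the 5 induced factors to be counted above a handful of reads. Cytoplasmic libraries held 0, 2 and 7 reads of it at 0 h, 0, 2 and 3 at 6 h, 0, 2 and 0 at 12 h and 4, 0 and 1 at 24 h, so any change up to 24 h was not detectable at this depth. At 36 h there were 24, 26 and 43 reads, or 2.24, 2.72 and 4.71 CPM, and the step from 24 h was called (adjusted p = 4.10e-05). Levels then went through 6.12, 8.74 and 5.98 at 48 h and 30.1, 32.6 and 42.6 at 72 h to 77.1, 76.8 and 102 CPM at 96 h. All 96 h libraries lay far above all 0 h libraries (log2 difference 8.39 ± 0.47 (SE), adjusted p = 3.89e-13). From pooled reads, 3207 at 96 h and 9 at 0 h, the ratio was 346-fold with a 95% counting interval of 182 to 759.

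Hnf4a behaved unlike the others, with a fall before its rise. Its 0 h libraries were close to each other, with 6.06, 5.83 and 6.34 CPM, and it stood at 4.62, 6.31 and 9.38 at 6 h. It fell to 2.48, 2.43 and 3.58 at 12 h (log2 difference -1.13 ± 0.30 (SE), adjusted p = 0.00529) and stood at 1.49, 1.11 and 1.88 at 24 h and 1.12, 0.837 and 1.32 at 36 h, where it was -2.51 ± 0.35 from 0 h (adjusted p = 2.37e-06). No library at 24 or 36 h reached any 0 h library. Its level was 2.75, 2.61 and 3.50 at 48 h, 3.35, 4.05 and 4.02 at 72 h and 12.6, 11.6 and 24.3 CPM at 96 h. At 72 h it was still called lower than at 0 h (-0.70, adjusted p = 0.0425), a call that was lost with DESeq2 (adjusted p = 0.0650) and without any 1 of the 3 runs (adjusted p = 0.0709 to 0.137). At 96 h all runs were above 0 h, by 1.35 ± 0.29 on the log2 scale (adjusted p = 0.000286). Without run 6 the calls at 12 h and 48 h were lost (adjusted p = 0.108 and 0.0760).

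**Figure D1:**
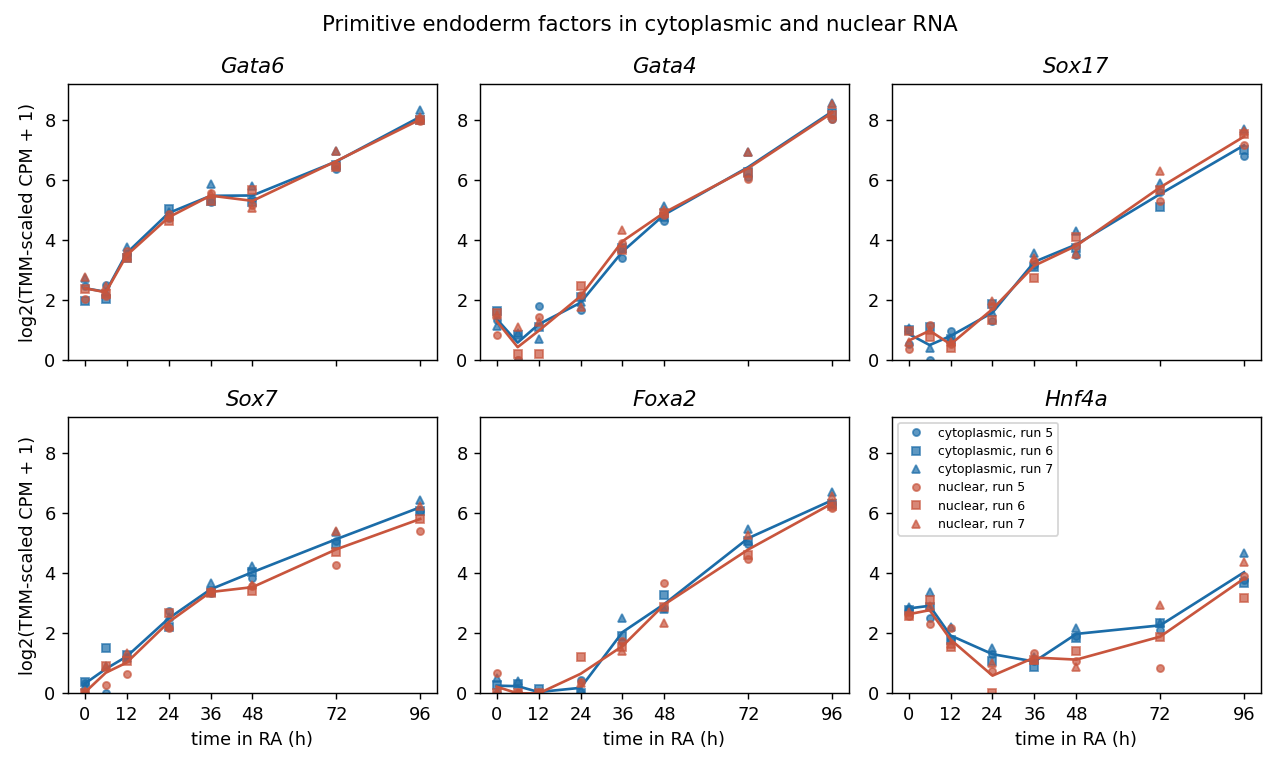
Levels of the 6 factors against hours in RA, as log2 of TMM-scaled CPM plus 1. Each point is 1 library of run 5, 6 or 7, lines join the means of 3 runs, blue is cytoplasmic and red nuclear RNA. Both colours run together, and 5 factors lie above their 0 h level in every run from 36 h on. Hnf4a lies below its 0 h level from 12 to 48 h, and in cytoplasmic RNA up to 72 h.

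Counted over the 6 genes, none was called higher than at 0 h at 6 h, where 16.2% of the 11675 genes tested were. By an unadjusted p under 0.05, Gata4 and Sox7 differed at 6 h (2 of 6), and DESeq2 called these 2. At 12 h, Gata6 and Sox7 were higher (2 of 6, background 16.8%) and Hnf4a was lower (1 of 6, background 17.5%). The same split held at 24 h, when 21.2% of all genes were higher and 22.6% lower. From 36 h to 72 h, 5 of 6 were higher and Hnf4a was lower. The background of higher genes was 24.4% at 36 h, 28.4% at 48 h and 32.5% at 72 h, and that of lower genes 26.2%, 28.7% and 32.9%. At 96 h all 6 were higher (background 33.3%). All 6 genes had passed the filter of a mean count above 10 over the 24 libraries.

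Steps between neighbouring time points show when each gene moved. Gata6 was the only one of the 6 called higher between 6 and 12 h (background 4.55%), and Hnf4a was called lower there (background 5.06%), though not without run 6 (adjusted p = 0.200) or run 7 (adjusted p = 0.0777). Gata6 and Sox7 rose between 12 and 24 h (background 9.07%), by 1.40 ± 0.21 and 1.79 ± 0.39 on the log2 scale, and the call of Sox7 was lost without run 7 (adjusted p = 0.0948). With the run as a block, Sox17 (higher, adjusted p = 0.0206) and Hnf4a (lower, adjusted p = 0.0175) passed in this step as well. Between 24 and 36 h, 5 of 6 rose, all but Hnf4a, where 5.4% of all genes did. Foxa2 had the largest of these log2 differences (4.43 ± 0.64, from 5 reads over the 24 h libraries), ahead of Sox17 (2.08 ± 0.40) and Gata4 (1.99 ± 0.35). The rise of Gata6 in this step (adjusted p = 0.0494) was lost without any 1 of the 3 runs (adjusted p = 0.0714 to 0.252). That of Sox7 was lost without run 6 (adjusted p = 0.312) or run 7 (adjusted p = 0.427), that of Gata4 without run 6 (adjusted p = 0.0552) and that of Sox17 without run 7 (adjusted p = 0.0525).

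From 36 to 48 h, Gata4, Foxa2 and Hnf4a rose (3 of 6, background 9.77%), by 1.33 ± 0.28, 1.14 ± 0.35 and 1.44 ± 0.36. Each of these 3 calls was lost without run 6 (adjusted p = 0.0791, 0.472 and 0.139). From 48 to 72 h all but Hnf4a rose (5 of 6, background 17.8%), with Foxa2 again ahead (2.33 ± 0.31) and Sox7 not called without run 7 (adjusted p = 0.0968). In the last step, 72 to 96 h, all 6 rose (background 13.7%). Here Hnf4a had the largest difference of the 6, 2.05 ± 0.30, and Sox7 the smallest, 1.06 ± 0.28. The call of Sox7 was lost without run 6 (adjusted p = 0.0840) or run 7 (adjusted p = 0.150), and that of Foxa2 without run 6 (adjusted p = 0.0643).

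To put the 6 genes in order, the midpoint time was taken in each run, the time at which log2(CPM + 1), interpolated between samples, last crossed the middle between the 0 h level and the highest level. In cytoplasmic RNA it was 30.3 ± 6.10 h (SD, n = 3) for Gata6 and 33.4 ± 1.13 h for Sox7. Gata4 (48.4 ± 2.57 h), Sox17 (50.5 ± 1.89 h) and Foxa2 (51.5 ± 3.65 h) followed, and Hnf4a came last with 88.0 ± 1.15 h. Only 2 gaps in this order were free of overlap between runs, the 14.9 h between Sox7 and Gata4 and the 36.4 h between Foxa2 and Hnf4a. Gata6 and Sox7, and likewise Gata4, Sox17 and Foxa2, had midpoints whose ranges over runs overlapped. Within each run, however, Gata4 came before Sox17 on this scale (3 of 3 runs, mean gap 2.15 h). Nuclear RNA of the same runs gave that order too (3 of 3 runs, 4.17 h). The midpoint of Gata6 in cytoplasmic RNA spread over 35.6, 23.6 and 31.6 h in runs 5, 6 and 7. Nuclear RNA gave 30.2 ± 3.00 h for Sox7, 37.5 ± 13.4 h for Gata6, 46.1 ± 2.90 h for Gata4, 50.3 ± 2.77 h for Sox17, 51.2 ± 4.69 h for Foxa2 and 87.8 ± 4.95 h for Hnf4a. There the only neighbours without overlap were Foxa2 and Hnf4a. The order rests on the scale and on the pseudocount. With log2(CPM + 0.1), Sox7 came before Gata6 in cytoplasmic RNA (25.0 and 28.9 h), and Sox17 (42.2 h) and Foxa2 (43.3 h) came before Gata4 (45.5 h). In nuclear RNA that pseudocount put Sox7 at 19.9 h and Gata6 at 35.9 h. On linear CPM all midpoints fell between 73.3 h (Sox7) and 86.6 h (Hnf4a) in cytoplasmic RNA, with Gata6 at 77.6 h behind Foxa2 at 75.7 h. Sox17 then came before Gata4 by the mean in cytoplasmic (78.0 and 79.45 h) and nuclear RNA (78.5 and 79.4 h).

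**Figure D2:**
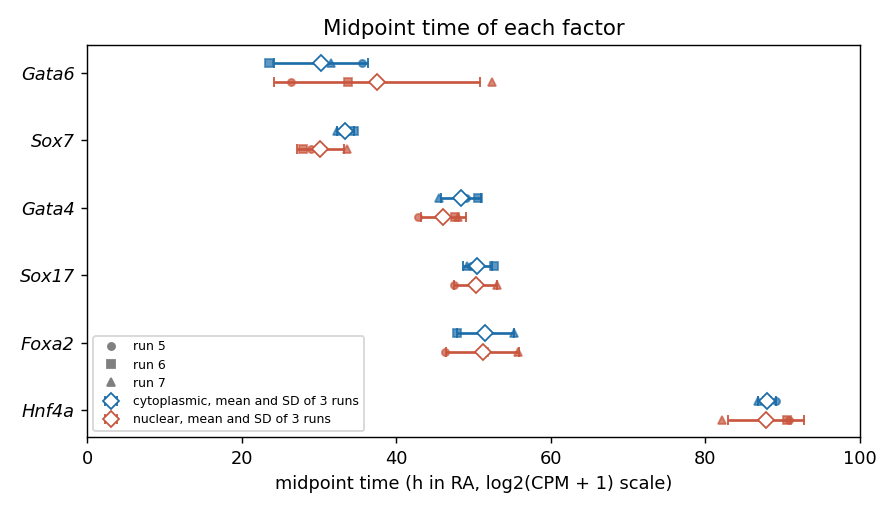
Midpoint time in hours of RA for each factor. Diamonds and bars give the mean and SD of 3 runs, small symbols the single runs, blue cytoplasmic and red nuclear RNA. Gata6 and Sox7 lie left of the other 4 in cytoplasmic RNA, Hnf4a lies far to the right, and the nuclear values of Gata6 spread the most.

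In nuclear RNA the same genes moved at similar times. Gata6 held 3.14, 4.24 and 5.79 CPM at 0 h, 11.3, 9.59 and 10.0 at 12 h, 27.96, 24.0 and 26.4 at 24 h, 34.8, 49.9 and 32.8 at 48 h and 247, 253 and 269.9 at 96 h, with no overlap with 0 h from 12 h on. Its difference at 96 h was 5.84 ± 0.21 (adjusted p = 1.86e-16). Sox7 had a single read over all 0 h libraries and 2, 17 and 10 reads at 6 h (0.211, 0.872 and 0.840 CPM), which was called higher (adjusted p = 0.000683) though not without run 6 (adjusted p = 0.0935). At 96 h it had 40.8, 54.2 and 73.5 CPM. The pooled reads, 2002 against 1, gave a ratio of 2484-fold with a counting interval of 445 to 98180, a range too wide to give its size.

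Gata4 stood at 0.785, 1.96 and 1.86 CPM at 0 h and 0, 0.154 and 1.18 at 6 h in nuclear RNA and was called lower at 6 h (log2 difference -1.93 ± 0.67 (SE), adjusted p = 0.0435). That call was lost without run 5 (adjusted p = 0.160) or run 6 (adjusted p = 0.444). The gene then had 13.9, 11.7 and 19.1 CPM at 36 h and 258, 283 and 364 at 96 h (log2 difference 7.54 ± 0.44 (SE), adjusted p = 7.54e-13). Sox17 rose from 0.294, 0.979 and 0.533 CPM to 2.49, 1.52 and 2.96 at 24 h (adjusted p = 0.000916) and 144, 182 and 197 at 96 h (adjusted p = 7.82e-15). Foxa2 was counted 6, 0 and 0 times at 0 h, in no library at 6 or 12 h, 4, 14 and 4 times at 24 h and 32, 31 and 19 times at 36 h, when it was first called (adjusted p = 0.00102). Its 24 h level missed the threshold (adjusted p = 0.137) and passed it without run 5, whose 0 h library holds all 6 reads of that group (adjusted p = 0.00770). It ended at 70.8, 73.7 and 92.7 CPM.

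Hnf4a in nuclear RNA went from 5.00, 5.00 and 5.59 CPM at 0 h to 0.678, 0 and 1.03 at 24 h (log2 difference -3.11 ± 0.70 (SE), adjusted p = 0.00129). At 36 h (1.55, 1.17 and 1.15 CPM) it was still called lower (adjusted p = 0.0164) as at 48 h (log2 difference -2.11, adjusted p = 0.0123), though both calls were lost without run 7 (adjusted p = 0.117 and 0.117) and that at 36 h also without run 6 (adjusted p = 0.0714). At 72 h the runs held 0.797, 2.66 and 6.69 CPM and overlapped with 0 h. At 96 h they held 14.0, 8.03 and 19.7, all above 0 h, with 1.41 ± 0.61 and an adjusted p of 0.0520 that DESeq2 put at 0.0189.

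Of the 6 genes, 1 was called higher and 1 lower at 6 h in nuclear RNA, where 10.7% of the 11934 genes tested were higher and 9.61% lower. At 12 h, 2 were higher (background 11.5%), namely Gata6 and Sox7. At 24 h, 3 were higher with Sox17 (15.1%) and Hnf4a was lower (14.4%). All but Hnf4a (5 of 6) were higher at 36 h (19.5%), 48 h (23.6%), 72 h (27.5%) and 96 h (27.7%). Hnf4a was the 1 lower gene at 36 h (19.4%) and at 48 h (21.3%).

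Set against each other in 1 fit of all 48 libraries, nuclear and cytoplasmic levels of the 6 genes did not differ past the threshold at any time tested. None of the 6 was called at 24 h or 36 h, where 0% of all 11817 genes were called at both times, at 48 h (background 9.41%), at 72 h (0.313%), at 96 h (0.338%) or in the mean of 72 and 96 h (3.3%). By an unadjusted p under 0.05, Foxa2 and Hnf4a differed at 24 h and Hnf4a at 48 h, none did at the other times, and DESeq2 called 0 of 6 throughout. The log2 difference of nuclear over cytoplasmic RNA, averaged over 72 and 96 h, was -0.04 ± 0.13 for Gata6, -0.03 ± 0.20 for Gata4 and 0.25 ± 0.20 for Sox17. Sox7 had -0.32 ± 0.22, Foxa2 -0.23 ± 0.27 and Hnf4a -0.20 ± 0.33. Gata6 and Gata4 lay closest to 0, and the error was smallest for Gata6 and largest for Hnf4a.

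The change from 0 h was also compared between fractions. None of the 6 differed at 48 h (background 0.381%), 72 h (0.00846%) or 96 h (0%), by an unadjusted p under 0.05 none did, and DESeq2 also called 0 of 6. Sox7 had the largest difference in change at 96 h, 2.57 ± 1.32 (adjusted p = 0.736), which rests on 1 nuclear and 9 cytoplasmic reads at 0 h and so on the prior count of the fit. The small separation of Malat1 and Neat1 stands beside all of these values, and its part in them was not tested.

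Levels of the factors can be set against each other only per unit of length. In deposited TPM (transcript abundance scaled for length and library total) of cytoplasmic RNA at 96 h, Sox17 had 238 ± 91.3 (SD, n = 3), Gata4 154 ± 25.0, Gata6 137 ± 14.9, Foxa2 71.2 ± 12.9, Sox7 33.3 ± 4.25 and Hnf4a 28.8 ± 13.9. Libraries of Sox17 and Gata4 overlapped, as did those of Gata4 and Gata6 and those of Sox7 and Hnf4a. Between neighbours in this order, only the drops from Gata6 to Foxa2 and from Foxa2 to Sox7 exceeded the spread. Sox17 (173 to 342) also lay clear of Gata6 (127 to 154). At 24 h Gata6 stood alone at the top with 12.9 ± 1.32 TPM, against 3.13 ± 1.16 for Sox17, 1.94 ± 0.443 for Sox7 and 1.38 ± 0.176 for Gata4. TPM divides by an effective length that the quantification sets per library. For Sox17 and Hnf4a it ran from 496 to 2367 bases and from 356 to 4053 bases between fraction libraries, for Foxa2 from 408 to 1793 and for Gata4 from 1028 to 3079, while that of Gata6 stayed within 2625 to 2897. In the single-end libraries the effective length was 1501 to 1899 bases for Sox17 and 3367 to 4317 for Hnf4a. The order was another in total RNA at 96 h (mean TPM of runs 1 and 2). There Gata4 had 260.5, Gata6 170.7, Sox17 157.7, Foxa2 81.35, Sox7 41.06 and Hnf4a 10.34. Sox7 and Hnf4a did not overlap there.

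The 3 runs were not alike in how far the factors rose. Run 7 held the highest CPM of all 3 runs for 6 of 6 genes at 96 h in both fractions, for 5 of 6 at 72 h in cytoplasmic RNA and 6 of 6 in nuclear RNA. At 48 h it was highest for 5 of 6 in cytoplasmic but for 2 of 6 in nuclear RNA. Gata4 at 96 h shows the size of this, with 259.7, 296 and 379 CPM in cytoplasmic RNA of runs 5, 6 and 7. The share of all genes that were highest in run 7 is not given here, so these counts are not shown to be particular to the factors.

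In total RNA, all 6 factors were higher at 96 h than at 0 h (6 of 6, background 16.3% of 15851 genes, 2 single-end libraries per time). Gata6 went from 0.420 and 0.613 CPM (runs 1 and 2) to 387 and 351 CPM, a log2 difference of 9.37 ± 0.37 (adjusted p = 0.000838). Gata4 went from 1.11 and 1.70 to 569 and 468 (8.43 ± 0.40, adjusted p = 0.000838). The runs were close at 96 h for these GATA factors and further apart for Sox17, which had 263 and 140.0 CPM after 0.480 and 0.341 at 0 h (8.81 ± 0.60, adjusted p = 0.00131). Foxa2 rose from 0.210 and 0.0681 to 130.4 and 95.5 (9.47 ± 0.59, adjusted p = 0.00114). Sox7 rose from 0.0300 and 1.02 to 96.9 and 86.5 CPM (7.42 ± 1.02, adjusted p = 0.00627). Its 0 h libraries disagreed, with 1 read in run 1 and 30 reads in run 2. Hnf4a changed least, from 7.29 and 2.35 to 27.2 and 25.6 CPM (2.28 ± 0.62, adjusted p = 0.0417), and lost its call without the 96 h library of run 1 (adjusted p = 0.111) or run 2 (adjusted p = 0.0709).

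The single libraries in between, which allow no test, followed each factor in run 1 and in run 3. In run 1 Gata6 had 1.22 CPM at 6 h, 34.5 at 24 h, 75.2 at 36 h, 75.2 at 48 h and 233 at 72 h. In run 3 it had 0.311 at 0 h, 4.27 at 12 h, 12.2 at 24 h, 11.1 at 36 h and 14.5 at 48 h. Gata6 thus stayed within 11.1 to 14.5 CPM from 24 h on in run 3, and in run 1 the 36 h and 48 h values came from the 2 libraries that were nearly equal over all genes. Either time label may thus be wrong, and every 36 h and 48 h value of run 1 given here rests on those labels. For Gata4 the 36 h libraries of runs 1 and 3 held 56.4 and 10.3 CPM, and for Sox17 40.1 and 3.26. All 6 genes were higher in the run 1 libraries labelled 36 h and 48 h than in those of run 3, and 5 of 6 at 24 h. By 48 h Foxa2 had 21.8 and 17.8 and Sox7 18.6 and 16.2, so those values came close together, while Gata6 stayed 5.20 times higher in run 1. The share of all genes that were higher in run 1 is not given here. Runs 1 and 3 differ in read layout, aligner, depth and gene identifiers listed (45706 and 54146), so their CPM do not share a base. Run and layout cannot be told apart.

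Sox7 went the other way at early times. Run 3 held 1.40 CPM at 0 h, 6.56 at 12 h and 7.31 at 24 h, against 2.12 at 24 h in run 1. It was the only 1 of the 6 that was lower in run 1 than in run 3 at 24 h. Hnf4a stood at 7.29 CPM at 0 h, 5.53 at 6 h and 1.46 at 24 h in run 1. In run 3 it had 1.64 CPM at 0 h (21 reads), 0.474 at 12 h (6 reads), 0.622 at 24 h (8 reads), 2.10 at 36 h (27 reads) and 1.09 at 48 h (15 reads). Its 36 h library thus lay above its 0 h library in run 3, and below it in run 1.

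**Figure D3:**
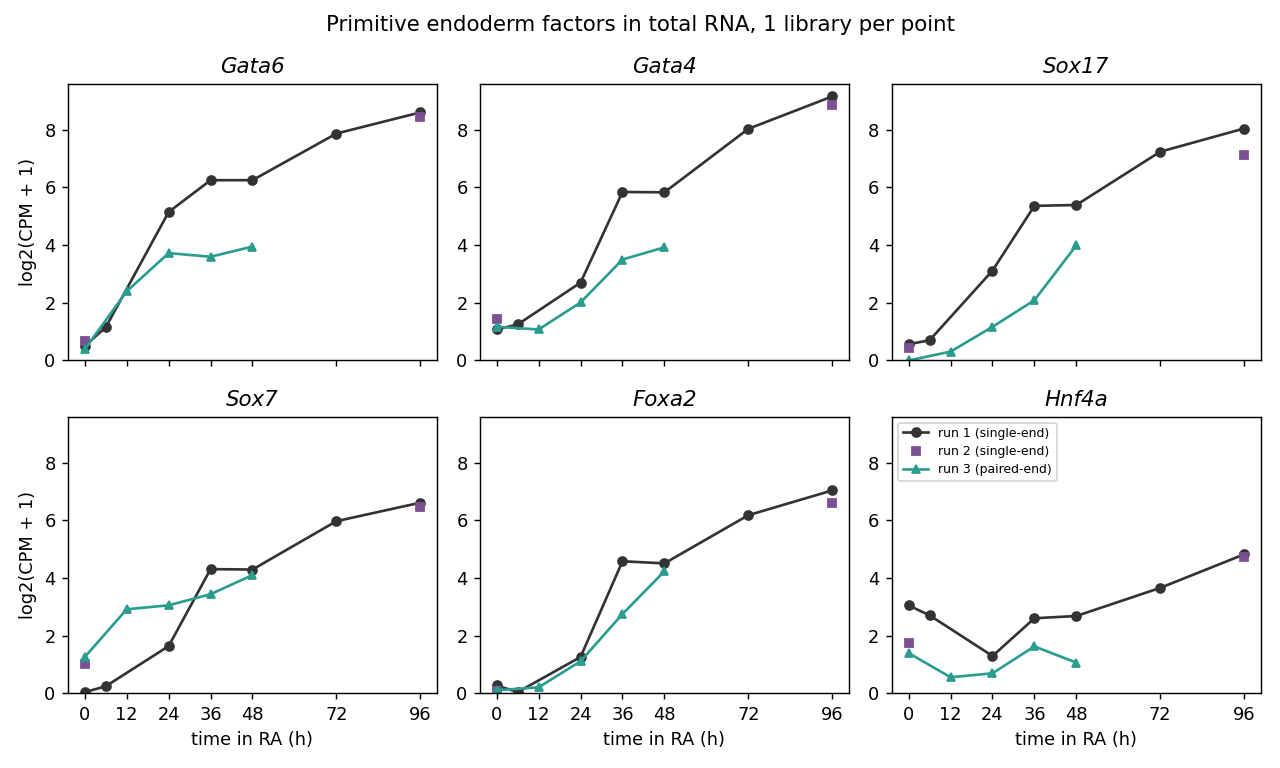
Total RNA levels of the 6 factors against hours in RA, as log2(CPM + 1), with 1 library per point. Circles are run 1, squares run 2 (0 and 96 h) and triangles run 3. Run 1 lies above run 3 for all 6 genes at 36 h, its 36 h and 48 h points are level, and Sox7 starts higher in run 3.

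Sorting after 96 h split the 6 factors. There is 1 library per gate, so no test was made and the intervals cover counting error only. Sox7 differed most, with 140.5 CPM in the library labelled XEN and 15.2 in the library labelled ECT, a ratio of 9.24 (95% interval 8.45 to 10.1). Gata6 had 489 and 142 CPM (ratio 3.44, 3.33 to 3.55) and Sox17 299 and 131 (ratio 2.27, 2.19 to 2.36). Gata4 was high in both, with 624 and 401 CPM (ratio 1.56, 1.52 to 1.59). The 2 factors best known from visceral endoderm were no higher in XEN by CPM. Hnf4a had 24.6 CPM in XEN and 39.2 in ECT (ratio 0.627, 0.572 to 0.687), and Foxa2 115 and 133 (ratio 0.868, 0.830 to 0.907), whose direction turned under TMM scaling (ratio 1.09). TMM scaling moved every ratio by the same 1.25 times (0.33 on the log2 scale), so that Sox7 came to 11.6, Gata6 to 4.32 and Hnf4a to 0.787. More than 2-fold higher in XEN were 3 of 6 (background 3.83% of 15151 genes) and more than 2-fold lower 0 of 6 (background 26.5%).

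**Figure D4:**
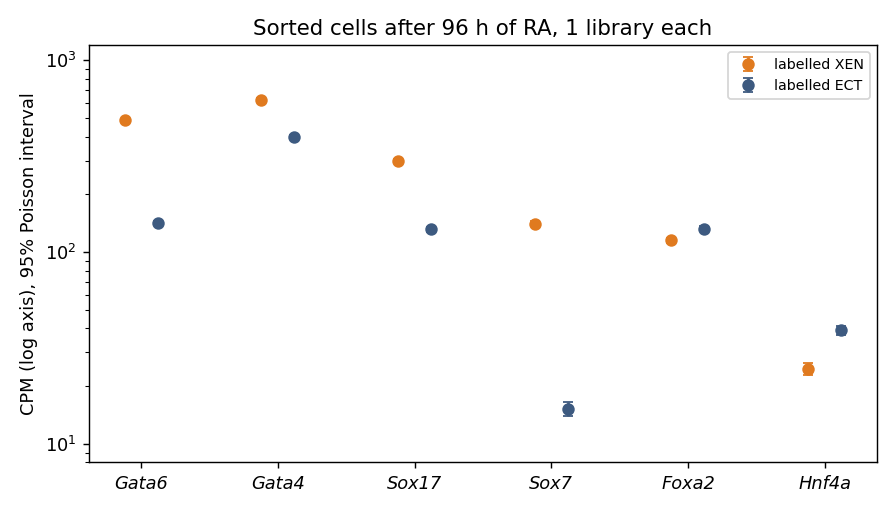
CPM of the 6 factors on a log axis in the 2 sorted libraries, orange for XEN and blue for ECT, with 95% Poisson intervals that are mostly smaller than the points. Sox7, Gata6, Sox17 and Gata4 lie higher in XEN, Foxa2 and Hnf4a higher in ECT, of which Foxa2 turns with TMM scaling.

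The ECT library also held endoderm markers. All 13 parietal endoderm genes of the list were higher in XEN. For 1 of these, Pdgfra, whose protein marked the gate, the sort itself set the direction. Among the others were Snai1 (82.1 and 8.17 CPM in XEN and ECT) and the basement membrane gene Col4a1, at 2896 and 2606. The summed level of that list was 39950 CPM in XEN and 18510 in ECT. Visceral endoderm genes parted. The endocytic genes Cubn (948 and 405) and Lrp2 (438 and 165) were higher in XEN. The secreted carriers Rbp4 (26.1 and 311), Ttr (14.8 and 79.2), Afp (1.09 and 24.4) and Apob (0.774 and 31.0) were higher in ECT, with 5 of 14 genes of the list higher in XEN and 9 in ECT. All 9 neuroectoderm genes were higher in ECT, with a summed level of 14.8 CPM in XEN and 304 in ECT, and Hes5 was at 0 in XEN while none was at 0 in ECT. Over all 15151 genes of the pair, 3.83% were more than 2-fold higher in XEN and 26.5% more than 2-fold lower. The pair as a whole thus leaned to ECT by CPM. The share of all genes higher in either library at any margin, as counted for the lists, is not given here. These endoderm levels in the ECT library stand beside every ratio above, and their part in them was not tested.

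**Figure D5:**
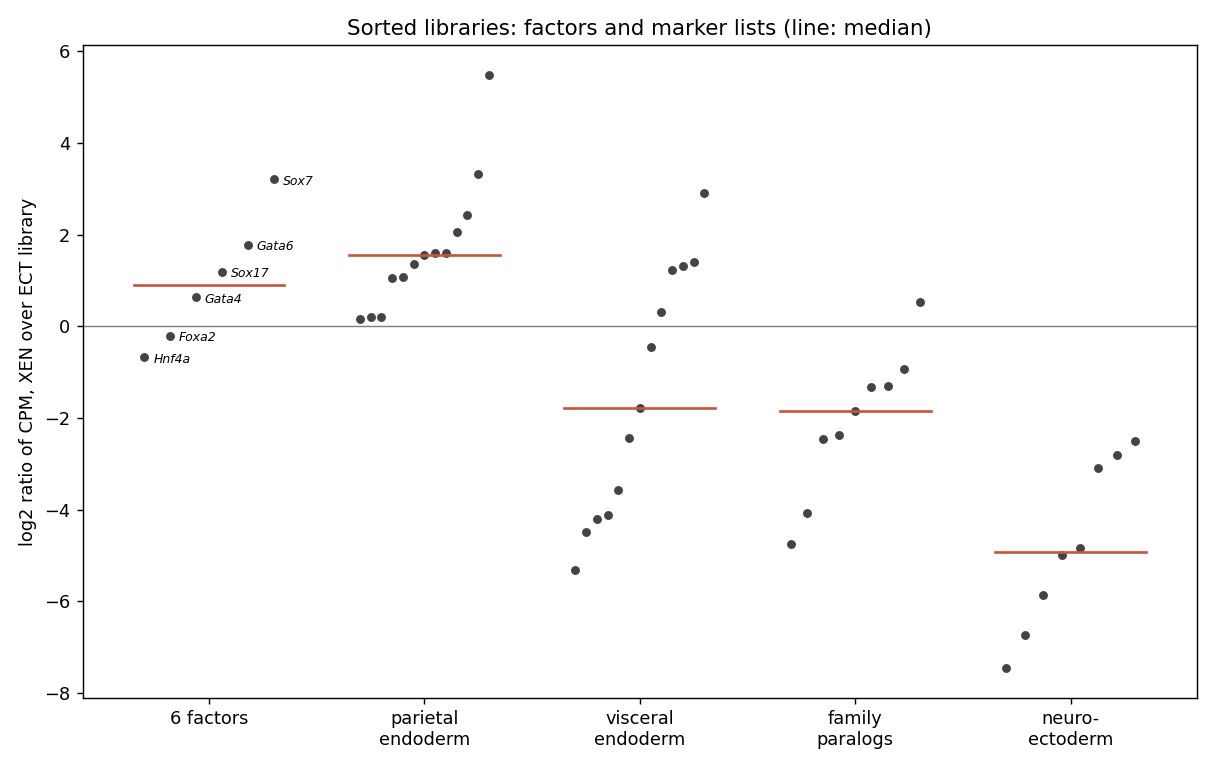
Log2 ratio of CPM, XEN over ECT library, for each gene of 5 lists that was counted in both. Lines are list medians, at 0.91 for the 6 factors, 1.55 for parietal and -1.78 for visceral endoderm, -1.84 for family paralogs and -4.91 for neuroectoderm.

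In mESCs kept in 2i with serum and without RA, each factor lay below its total RNA level at 96 h. The 96 libraries of transfected mESCs, made from fixed cells kept in 2i with serum, comprise 48 of miR inhibitors and 48 of miR mimics, and no comparison between the reagents was made. The miR-100-5p mimic library of replicate 3, which the study's methods leave out for low complexity, held no read of any of the 6 genes among 6257540 counts and is left out here, which leaves 47 mimic libraries. Gata6 had a median of 3.27 (0.168 to 5.87) CPM with inhibitors and 1.59 (0.184 to 3.58) with mimics, lowest and highest library in parentheses. Gata4 had 7.39 (4.55 to 11.1) with inhibitors and 1.297 (0 to 3.78) with mimics. Hnf4a had 8.31 (5.37 to 11.6) with inhibitors and 5.05 (2.30 to 6.80) with mimics. These 3 genes were counted in every inhibitor library, and of the mimic libraries only 2 of Gata4 were at 0. Sox17 had 1.21 (0.460 to 2.38) with inhibitors and 0.524 (0 to 4.11) with mimics (2 at 0). Sox7 had 1.03 (0.192 to 2.41) with mimics and 0.207 (0 to 0.669) with inhibitors, of which 10 were at 0. Foxa2 had 0.204 (0 to 0.955) with inhibitors (3 at 0) and 0 (0 to 0.493) with mimics (25 at 0). The highest value of each gene lay below both of its total RNA values at 96 h of RA, for 6 of 6, with or without the library left out. The share of all genes for which this holds is not given here. The transfected libraries are paired-end with 54146 gene identifiers and the 96 h libraries single-end with 45706, and the aligners differ.

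Relatives from the same families were read beside them. Between 0 and 96 h in cytoplasmic RNA, Foxa1, the sister gene of Foxa2, rose from 1.71 ± 0.612 to 61.2 ± 18.9 CPM (log2 difference 5.16 ± 0.28, adjusted p = 2.39e-13) and was already at 32.0 ± 2.91 at 48 h. Gata3 rose from 0.818 ± 0.245 to 19.6 ± 2.21 (4.55 ± 0.43, adjusted p = 3.77e-09). Gata2 fell from 32.5 ± 2.21 to 7.83 ± 0.557 (-2.10 ± 0.29, adjusted p = 1.25e-06). Sox18 was not called (-0.33 ± 0.58, adjusted p = 0.626). In the sorted libraries Foxa1 stood at 1.51 CPM in XEN and 40.6 in ECT.

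Markers of the lineage moved over the same span. At 96 h, 9 of 10 tested parietal endoderm genes were higher than at 0 h and none lower, where 33.3% of all genes tested were higher (median log2 difference 5.09, against -0.02 over all genes tested), as were 8 of 10 visceral endoderm genes (median 5.99, or 5.79 with Afp and Ttr, which had no read at 0 h, at the bound that 3 reads over the group give). The laminin gene Lamb1 (7.59 ± 0.23, adjusted p = 7.53e-18) and the endocytic adaptor Dab2 (7.55 ± 0.26, adjusted p = 9.82e-17) had the largest differences of the parietal list. The cobalamin receptor Cubn went from 2 reads over the 0 h libraries to a mean of 995 CPM (adjusted p = 4.48e-19). Among genes of the visceral list with a mean count of at least 50, Rbp4 (6.77 ± 0.51) and Bmp2 (6.76 ± 0.35) followed. At 48 h, 4 of 10 parietal genes were higher and 2 lower, and 5 of 10 visceral genes were higher, where 28.4% of all genes were higher and 28.7% lower. Of 6 anterior visceral endoderm genes tested, 2 were higher and 2 lower at 96 h (median 0.45), which is near the shares of all genes. Lhx1, with 1 read at 0 h and 12.0 ± 6.45 CPM at 96 h, and Dkk1 (1.81 ± 0.34) rose and Otx2 did not pass (0.66 ± 0.61, adjusted p = 0.348).

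Other lineages give the setting of these values. All 9 naive pluripotency genes tested were lower at 96 h (median -4.99, where 34.4% of all genes were lower and 33.3% higher), with Prdm14 at -7.94 ± 0.27, Nanog at -6.45 ± 0.17 and Esrrb at -6.40 ± 0.14. All 6 neuroectoderm genes tested were higher (median 5.63), with Pax6 at 7.88 ± 0.31, Sox11 at 6.39 ± 0.22 and Cdh2 at 4.94 ± 0.16. Floor plate genes, some of which depend on Foxa2 in the neural tube, were higher for 3 of 3 tested, yet their summed level of 183 to 196 CPM at 96 h was mostly Ntn1 (176 ± 4.35 CPM). Genes of liver and gut (1 higher and 1 lower of 2), heart (3 higher and 1 lower of 4), trophoblast (2 higher and 2 lower of 4), endothelium (3 higher and 3 lower of 6) and mesendoderm (0 higher and 2 lower of 4), tissues where some of the 6 factors also act, showed no common direction. At 96 h liver and gut genes summed to 17.3 to 18.5 CPM (3.17 to 6.06 at 0 h). Heart genes summed to 11.8 to 13.5 (7.83 to 11.3 at 0 h) and trophoblast genes to 20.6 to 23.1 (160 to 168). Endothelium genes summed to 58.4 to 59.1 (205 to 258 at 0 h) and mesendoderm genes to 17.7 to 24.1 (51.05 to 61.07). Of the named genes, Foxh1 (-1.91 ± 0.12), Pecam1 (-5.11 ± 0.13), Tek (-0.83 ± 0.14), Tfap2c (-4.50 ± 0.20) and Cdx2 (-3.59 ± 0.48) fell, while Myh6 (1.14 ± 0.27) and Egfl7 (0.73 ± 0.16) rose.

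Genes most like each factor in their course were sought among 9503 genes with a mean count of at least 50, by Pearson's r of log2(CPM + 1) over the 24 cytoplasmic libraries, which share their time points and runs. Gata4 and Sox17 were each other's closest genes (r = 0.992), followed by Lamb1 for both (0.991 and 0.989), then Adcy6 for Gata4 (0.988) and Gnas for Sox17 (0.983). Foxa2 was most like the endocytic receptor Cubn (0.991), Dab2 (0.989) and Lamb1 (0.989). Sox7 was most like the growth factor receptor Fgfr3 (0.985), Sema4c (0.984) and Pxdn (0.982), and Fgfr3 was also the closest gene to Gata6 (0.974), followed by Klhl23 (0.974) and Rfx4 (0.972). Hnf4a had lower values, with Sipa1l1 (0.945), the lysosomal protease Ctsl (0.942) and Plxnb2 (0.935). Among the factors themselves r was 0.892 to 0.992 for pairs without Hnf4a and 0.162 to 0.455 for pairs with it.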

How the data were processed

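Libraries of poly(A) RNA were made by the authors from cytoplasmic, nuclear and total RNA. Per the labels, the deposited values are expected counts and TPM per gene that the authors estimated with RSEM (1.2.28 after Bowtie2 2.2.6 for single-end reads, 1.3.1 after Trimmomatic 0.38 and STAR 2.6.1a for paired-end reads) on mm10. For the count tests these estimates were rounded. Libraries were stranded, and STAR was run with that option.

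Genes with a mean count above 10 were scaled by TMM and tested with edgeR 4.0.16 (glmQLFit, glmQLFTest) in R 4.3.3, with Benjamini-Hochberg adjustment over all genes tested and a threshold of 0.05. SE is the log2 difference divided by the root of F. Low fitted differences depend on edgeR's prior count. Fits used 24 libraries per fraction, all 48 for nuclear against cytoplasmic RNA, or 4 for total RNA. DESeq2 1.42.0, its size factors, no filter or a mean count above 50, the run as a block and each library or run left out were alternatives. The labels give 5, 6 and 7 as separate differentiations, so equal numbers pair libraries. Deviations of same-run libraries of both fractions correlated at -0.222 to 0.298 (24 pairs). The fits were tested on simulated data. Sorted libraries have Poisson intervals, and ratios Clopper-Pearson intervals, at 95%, for counting error only. Small RNA libraries and a table of coding and untranslated counts were not used here. Members, lists and tests were chosen with earlier results of these data known. Named genes are the 6 factors, tested paralogs (some not reported here), the 3 largest differences per list among genes with a mean count of at least 50, and the 3 most like genes. The 6 genes between Gata4 and Sox7, the sorted-library examples and the nuclear RNAs were chosen after their values were seen. Plots used matplotlib 3.10.9 (python 3.11.15).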

Additional observations from a re-analysis of the deposited data

Results flagged for a closer look

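Hnf4a moved in opposite directions in the total RNA of runs 1 and 3 between 0 h and 36 h, by -2.197 CPM in run 1 and by 0.46 CPM in run 3. Each run has a single library per time point, so the difference between the runs was not tested, and the run 3 values rest on 21 reads at 0 h and 27 reads at 36 h. The run 1 library labelled 36 h was nearly equal to that labelled 48 h over all genes, so its time label is in doubt, and the run 1 value rests on it.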

How the results depend on the processing

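Counts of member and time pairs called higher than 0 h (25 of 42 in cytoplasmic and 26 of 42 in nuclear RNA) ran from 25 to 28 and 26 to 29 under the other test, scaling and filters, and both were 26 with the replicate block. They ran from 24 to 26 and 25 to 27 when a run was left out. In total RNA 6 of 6 were called under each other setting and 5 to 6 with a library left out. No factor differed between nuclear and cytoplasmic RNA under any setting (0 to 0 with a run left out). Beyond the 4 calls given in the report, the replicate block changed no call. The span from the first to the last midpoint in cytoplasmic RNA, 57.7 h, was 55.1 to 59.8 h with a run left out, 57.2 h on library totals, 63.2 h with log2(CPM + 0.1) and 13.3 h on linear CPM, where the large late levels set the midpoint. The sign of values that were not called turned in 13 cases, all with a run left out. Their ranges with a run left out were, against 0 h in cytoplasmic RNA, -0.42 to 0.037 for Gata6 and -0.20 to 0.33 for Hnf4a at 6 h, -0.80 to 0.042 for Gata4 and -0.74 to 0.045 for Sox17 at 12 h, and -2.86 to 0.82 for Foxa2 at 24 h. Between neighbouring times they were -0.16 to 2.58 for Sox17 and -0.017 to 1.87 for Sox7 from 6 to 12 h, -0.41 to 4.35 for Foxa2 from 12 to 24 h and -0.030 to 0.055 for Gata6 from 36 to 48 h. In nuclear RNA they were -0.028 to 0.41 for Hnf4a at 6 h and -0.94 to 0.15 for Gata4 and -0.78 to 0.26 for Sox17 at 12 h, and -0.079 to 0.0097 for Gata6 between nuclear and cytoplasmic RNA. The causes were not tested. The ratio of Foxa2 in the sorted libraries turned under TMM scaling (1.09). With TPM in place of CPM, 6 of 6 were still higher in run 1 at 36 h, 4 of 6 higher in XEN (5 of 6 under TMM scaling), and 6 of 6 lower without RA than at 96 h, as without the low-complexity mimic library, a setting chosen after the data were seen. Depth limits Foxa2 and Sox7 most, as their fraction libraries held 0 to 7 reads at 0 h.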
